A study of Mus musculus with 4 samples.

Results

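Broad CTCF peaks of moderate or low score made up 547 of the 14974 autosomal peaks (3.65%) in a list of 15109 peaks from mouse hippocampus. A peak was a member if it was wider than 1000 bp and its score lay under a limit that 95.0% of autosomal peaks did not reach. The members were chosen by width and by the authors' score, so neither quantity is a result here. The list was made by ChIP-seq, which sequences the DNA that an antibody pulls down, from the hippocampus of mice of strain C57/Bl. It combined 2 libraries precipitated with an antibody against CTCF and 2 inputs, in which chromatin was sequenced with no antibody step. The labels give no treatment, genotype, age or sex for either group. The series text counts 1 input and the sample labels count 2. The combined list holds no value for any single library, so replicate errors cannot be given, and peaks are not replicates. No test was run on the differences described. Intervals are 95% intervals that cover counting error only, and the read depth behind a peak is unknown.

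CTCF recognises a long DNA motif through its zinc fingers and halts the cohesin complex as it extrudes chromatin loops. Its sites are common at the borders of chromatin domains and near promoters. A single bound site usually gives a short, sharp peak, whereas a wide call may span several sites or a region of diffuse enrichment. The positions and scores used here give no summit inside a peak, so these cases cannot be told apart here. In the hippocampus, loss of CTCF from neurons is known to impair memory in mice. No sequence or gene annotation of build mm9 was used, so peaks are named by position and their motifs and genes were not analysed here.

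The members were broad only in comparison with the other peaks of this list. Their widths ran from 1001 to 3376 bp, with a median of 1193 bp and quartiles of 1080 and 1390 bp. Of the 547 members, 448 were at most 1500 bp wide and 19 exceeded 2000 bp. The 13679 autosomal peaks of 1000 bp or less under the same score limit, called narrow peaks below, had a median width of 458 bp. Members covered 707 kb, or 8.56% of all autosomal peak bases.

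The scores of the members were low only against their limit, which 748 autosomal peaks (4.995%) reached or passed. Member scores ran from 37 to 565, with a median of 208 and quartiles of 128.5 and 323.5. The narrow peaks had a median score of 90. Only 69 members (12.6%) scored under 93, the median of all autosomal peaks, and 352 (64.4%) reached the upper quartile score of the list, against 25.2% of all autosomal peaks. A label of low score therefore holds for few of them, and most scored above the list's median. The share of peaks wider than 1000 bp was 0.598% at scores of 13 to 61 (19 of 3176) and 3.37% at 93 to 162. It was 14.8% at 250 to 349 and 17.3% at 450 to 568 (46 of 266). In the whole score range it was 3.85%, and over all autosomal peaks it was 5.78%.

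Both limits cut through a continuous cloud of peaks. The 5 members nearest to the width limit were 1001 to 1003 bp wide and scored 85 to 474. The 5 peaks just outside it were 996 to 999 bp wide and scored 87 to 425. At the score limit, the 5 highest members scored 555 to 565, and the 5 lowest wide peaks above it scored 570 to 582.

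**Figure D1:**
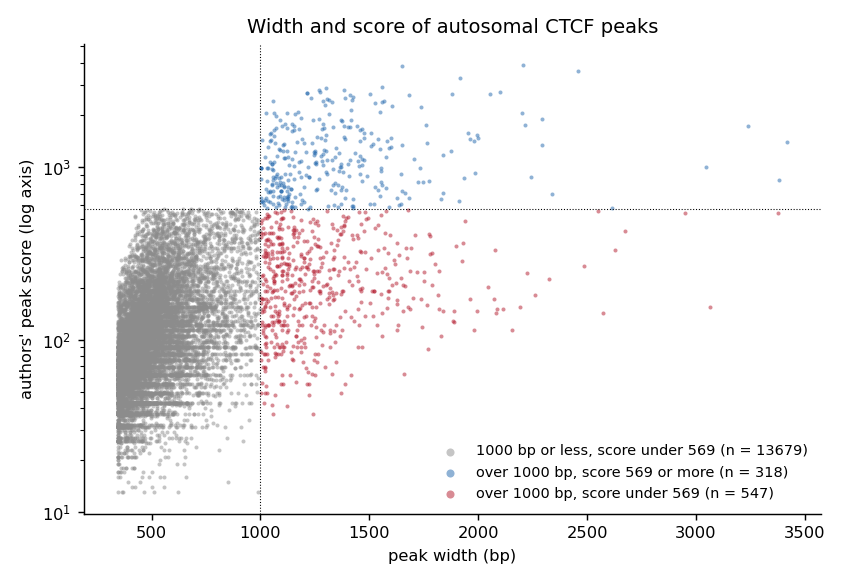
Each point is an autosomal CTCF peak, with its width in bp on the horizontal axis and the authors' score on a logarithmic vertical axis. The 547 members (red) sit right of 1000 bp and below the score limit (dotted lines), beside 13679 narrow peaks (grey) and 318 wide peaks of higher score (blue), with no gap at either line.

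The widest member lay on chromosome 10 at 60803607 to 60806982 (mm9), measured 3376 bp and scored 540. Its nearest peak, 6.02 kb away between midpoints, was only 393 bp wide and scored 123. The next widest, on chromosome 11 at 78831592 to 78834657, measured 3066 bp but scored only 154, less than the 209 of its nearest peak 3.44 kb away. These neighbours were both narrow.

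The third member by width, on chromosome 9 at 108960290 to 108963240, measured 2951 bp, scored 541 and had no other peak within 10 kb. The fourth, on chromosome 6 at 84043476 to 84046151, was 2676 bp wide with a score of 425 and was also alone in that range, with 29.9 kb to the nearest peak. The fifth, on chromosome 11 at 117963059 to 117965684, was 2626 bp wide and scored 331. It had 2 peaks within 10 kb, and only 449 bp separated its edge from the nearer one. The widest calls thus included both isolated peaks and peaks in company.

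Members lay closer to other CTCF peaks than narrow peaks did. Another peak midpoint was found within 10 kb of 326 of the 547 members, or 59.6% (95% exact binomial interval 55.4 to 63.7%). The share was 42.7% (41.9 to 43.5%) of the narrow peaks and 43.4% of all autosomal peaks under the score limit. The difference between members and narrow peaks was 16.9 percentage points (95% Newcombe interval 12.6 to 21.0). Neighbouring peaks count each other, so they are not independent and these intervals are too narrow.

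The median distance to the nearest peak was 6.43 kb for members (quartiles 2.04 and 19.97 kb) and 13.9 kb for narrow peaks (quartiles 4.18 and 44.8 kb). The ratio of the medians was 2.16. Measured from edge to edge, which takes out the width of the peaks themselves, the medians were 5.63 and 13.4 kb. Long isolation was less frequent among members, since 29 of them (5.30%) had an edge gap above 100 kb, against 12.8% of narrow peaks.

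**Figure D2:**
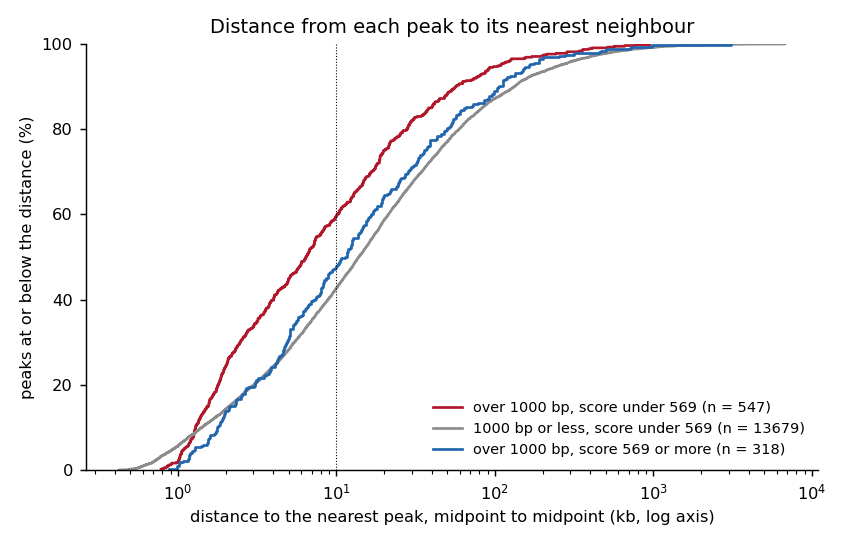
Curves give the percentage of peaks (vertical axis) whose nearest peak lies at or below a distance in kb (horizontal axis, logarithmic). At 10 kb (dotted line) the members (red) had reached 59.6%, the narrow peaks (grey) 42.7% and the 318 wide peaks above the score limit (blue) 47.8%, and below about 1 kb the width of the wide peaks holds their midpoints apart.

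Company was also more often multiple. Among members, 141 had 1 other peak within 10 kb, 97 (17.7%) had 2, and 88 (16.1%) had 3 or more. Among narrow peaks, 11.0% had 2 and 7.06% had 3 or more. Peaks flanked on both sides, with edge gaps of at most 10 kb, made up 19.4% of members (106) and 11.2% of narrow peaks.

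The contrast was steepest at the shortest gaps. An edge gap under 1 kb was found for 134 members (24.5%, interval 20.9 to 28.3%), against 11.3% of narrow peaks and 11.8% of all autosomal peaks under the score limit. Per 100 members, there were 13.6 other peaks per kb of flank in the first 1 kb, against 6.01 per 100 narrow peaks, a ratio of 2.27. At gaps of 1 to 2 kb the values were 7.40 and 4.19, a ratio of 1.77, and at 5 to 10 kb they were 5.06 and 3.24, a ratio of 1.56. At 50 to 100 kb they were 2.54 and 2.15, so that the ratio had dropped to 1.18 without reaching 1.

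The wide peaks of higher score give the comparison at like width. Of the 318 autosomal peaks wider than 1000 bp at or above the score limit, 47.8% (42.2 to 53.4%) had another peak within 10 kb. Members exceeded them by 11.8 percentage points (4.91 to 18.6). Their median distance to the nearest peak was 11.5 kb, 1.79 times that of the members. Edge gaps under 1 kb were found for 12.9% of them, 11.6 points fewer than among members (6.24 to 16.6). Wide peaks were thus spaced less closely at scores above the limit than below it.

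Within the score range, members had a close neighbour more often than narrow peaks in each of 4 score classes. Score classes were set by the quartiles of the members. The lowest class is not fully matched, since narrow peaks score from 13 and members from 37. At scores of 13 to 128, 88 of 137 members (64.2%) and 43.8% of narrow peaks had another peak within 10 kb. At 129 to 208 the shares were 63.8% and 42.0%, and at 209 to 323 they were 55.3% and 38.6%. In the top class, 324 to 568, they were 54.7% and 36.1%. The difference was between 16.7 and 21.9 points in the 4 classes. The lower ends of its intervals ran from 7.62 to 13.4 points. These intervals are also too narrow, because neighbouring peaks are not independent, and they are no test of the difference. With the narrow peaks weighted to the scores of the members in finer classes, their share was 39.7% and the difference 19.9 points.

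Edge gaps under 1 kb occurred for 44 of the 137 members scoring up to 128 (32.1%, interval 24.4 to 40.6%), against 11.7% of narrow peaks in that class. In the next class they occurred for 27.7% of members (20.5 to 35.8%) and 11.6% of narrow peaks. The shares were 18.2% (12.0 to 25.8%) and 9.56% at 209 to 323, and 19.7% (13.4 to 27.4%) and 7.53% at 324 to 568. The intervals of the members overlapped between neighbouring classes and between the lowest and the top class.

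The share with a close neighbour also increased gradually with width, on both sides of the 1000 bp limit. Among peaks under the score limit it was 40.2% at 344 to 400 bp, 43.2% at 501 to 600 bp and 50.9% at 801 to 999 bp. Among members it was 56.0% at 1001 to 1200 bp, 58.4% at 1201 to 1494 bp and 71.7% above 1500 bp (71 of 99, interval 61.8 to 80.3%). Edge gaps under 1 kb went from 9.32% in the shortest class to 37.4% in the widest. Next to the limit itself the values were close, with 48.2% (41.9 to 54.6%) at 901 to 1000 bp and 54.8% (47.2 to 62.3%) at 1001 to 1100 bp, and these intervals overlap. The median score was higher in wider classes up to 218.5 at 1201 to 1494 bp, so width and score move together here.

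**Figure D3:**
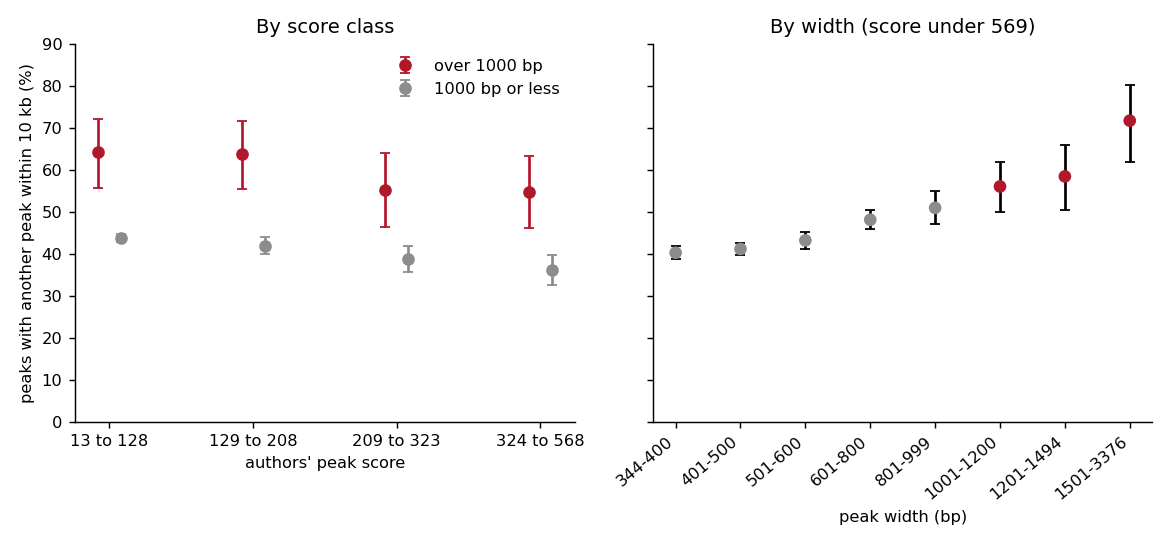
Points give the percentage of peaks with another peak within 10 kb, with 95% exact binomial intervals. On the left, members (red) were above narrow peaks (grey) in all 4 score classes, and on the right the share increased along the width classes of peaks under the score limit, from 40.2% to 71.7%.

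The neighbours of members were mostly narrow peaks of modest score. Among the 326 members with another peak within 10 kb, the nearest one had a median width of 522.5 bp and a median score of 81 (quartiles 55 and 135). The nearest peak scored lower than the member in 250 cases (76.7%). For narrow peaks the nearest peak had a median score of 90 and scored lower in 46.3%, but narrow peaks also start from lower scores. Within score classes, the median score of the neighbour was 76 for members and 89 for narrow peaks at 13 to 128, and 95 and 109 at 324 to 568. Of the nearest peaks of members, 28 (8.59%, interval 5.78 to 12.2%) were themselves wider than 1000 bp, against 7.09% of those of narrow peaks. Over all autosomal peaks the share was 5.78%. The nearest peak reached the score limit for 21 members (6.44%) and for 3.99% of narrow peaks, against 4.995% of all autosomal peaks. These differences were not tested. Members formed 19 pairs with each other within 10 kb, which involved 37 members (6.76%). The nearest peak was itself a member for 13 of the 326 members with a neighbour (3.99%, interval 2.14 to 6.72%) and for 4.91% of such narrow peaks (4.37 to 5.50%). Members made up 3.65% of autosomal peaks, so the share for members was near this background. The share for narrow peaks was somewhat above it.

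Peaks separated by less than 1 kb were joined to see what the members belonged to. This gave 825 autosomal runs of 2 or more peaks, 126 of which (15.3%) held at least 1 member and 8 of which held more than 1. Runs with a member had a median length of 2410 bp, and 26 of them (20.6%, interval 13.9 to 28.8%) held 3 or more peaks. The 699 runs without a member had a median length of 1576 bp, and 52 of them (7.44%, interval 5.61 to 9.64%) held 3 or more. Both differences are partly built in. A run with a member holds a peak wider than 1000 bp by definition, and a run of more peaks has more chances to hold a member. The longest run with a member, on chromosome 4 from 149021338 to 149026880, spanned 5.54 kb and held 4 peaks. Its first 2 peaks were members, 1430 and 1336 bp wide with scores of 128 and 302, and the others were 679 and 367 bp wide with scores of 151 and 45. A run of like length on chromosome 2, from 32188268 to 32193771, also held 4 peaks, but only 1 was a member, 1050 bp wide with a score of 97. In that run the member had the lowest score, the others scoring 172, 208 and 155. On chromosome 8, from 127199139 to 127204632, a member of 1718 bp with a score of 248 stood among 3 weaker peaks that scored 59 to 103.

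Some members sat in dense company. The member on chromosome 8 at 122813289 to 122814657, 1369 bp wide with a score of 409, had 7 other peaks within 10 kb, and its nearest, 572 bp from its edge, scored 612. The member on chromosome 4 at 140093234 to 140094329 also had 7, although it was weak itself, with a score of 55, and its nearest peak scored 247. Members on chromosome 2 at 166417364 to 166418606, on chromosome 5 at 114294081 to 114295340 and on chromosome 11 at 117173755 to 117174910 had 6 each. Their scores were 503, 484 and 392, and their nearest peaks were weaker, with scores of 79, 155 and 81.

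Others stood alone. The most isolated member, on chromosome 19 at 30623133 to 30624376, was 1244 bp wide, scored 241 and had its nearest peak 954 kb away. The member on chromosome 1 at 83404023 to 83405102 scored 390 and followed at 773 kb. Members on chromosome 3 at 38785930 to 38787329 and on chromosome 11 at 21471419 to 21472775 scored 283 and 237 and lay 660 and 566 kb from any peak. The fifth, on chromosome 8 at 36222945 to 36223999, scored 127 and lay 516 kb away. The 5 were 1055 to 1400 bp wide, and none was among the 5 widest members.

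The strongest members showed the same range of settings. The highest score, 565, belonged to a member on chromosome 12 at 109444137 to 109445815, which had 5 peaks within 10 kb, the nearest of them 177 bp from its edge and scoring 43. The member on chromosome 14 at 56290184 to 56291290 scored 561 and had 1 neighbour, 9.93 kb away. In contrast, the member on chromosome 7 at 98410500 to 98411640 scored 560 and was 410 kb from the nearest peak. On chromosome 17 at 27169131 to 27170435 a member scored 559 and had 2 neighbours. On chromosome 11 at 102976291 to 102978839 a member of 2549 bp scored 555 and had 1.

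At the other end, 2 members shared the lowest score of 37. The one on chromosome 2 at 167103956 to 167105198 had 2 peaks within 10 kb, and the one on chromosome 5 at 36361369 to 36362426 had none. The member on chromosome 15 at 74367182 to 74368303 scored 41 and had 4, and its shortest edge gap was only 82 bp. Members on chromosome 1 at 135282688 to 135283738 and on chromosome 4 at 86557509 to 86558523 scored 42 and 43, with 3 neighbours and none.

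Members were found more often where peaks were dense at a larger scale. The number of other peaks 10 to 500 kb away, which leaves out the close neighbours, had a median of 21 for members, 17 for narrow peaks and 18 for wide peaks of higher score. Peaks under the score limit were divided by this number into 5 classes. Where 0 to 6 such peaks lay around, 61 of 3093 peaks (1.97%, interval 1.51 to 2.53%) were members. Where 7 to 12 lay around the share was 3.42%, and where 32 to 80 lay around it was 5.16% (141 of 2734, interval 4.36 to 6.05%). The median score was 90 in each of the 5 classes, so the classes did not differ in this respect.

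At like local density, members still had close neighbours more often than narrow peaks. In the sparsest class the shares were 27.9% (17 of 61) and 17.7%, and in the densest they were 76.6% (108 of 141) and 65.8%. The difference ran from 7.59 points at 13 to 21 surrounding peaks, where its interval included 0 (-1.08 to 16.0), to 21.0 points at 7 to 12 (10.5 to 31.2). With the narrow peaks weighted to the local density of the members, the difference was 11.9 points, and weighted to both density and score it was 15.1 points. Matching on local density thus left a smaller difference than the 16.9 points over all narrow peaks.

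**Figure D4:**
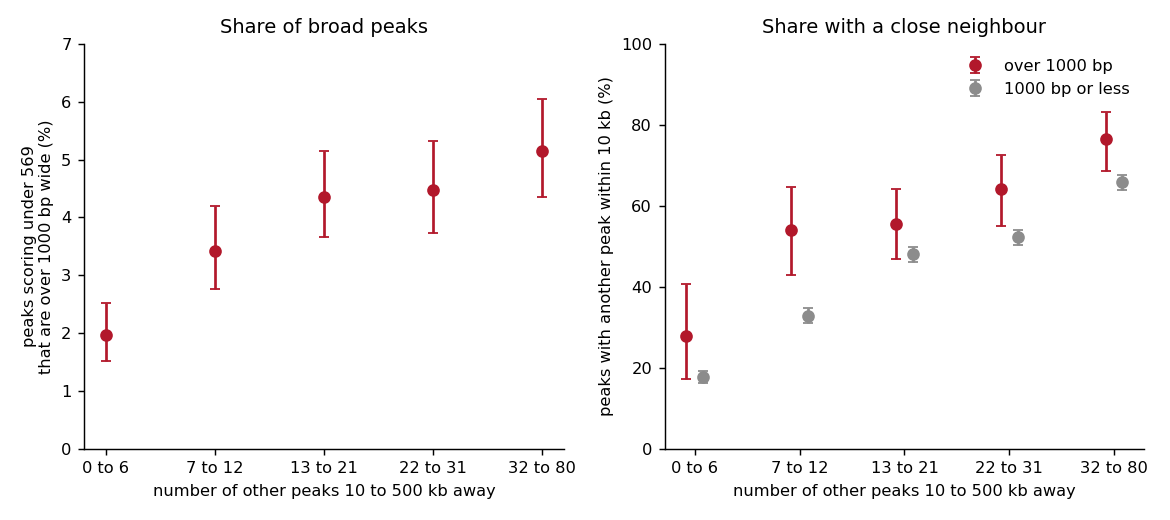
Peaks under the score limit are divided by the number of other peaks 10 to 500 kb away (horizontal axis), with 95% exact binomial intervals. The share of peaks wider than 1000 bp (left) went from 1.97% to 5.16%, and the share with another peak within 10 kb (right) was higher for members (red) than for narrow peaks (grey) in each class, with overlapping intervals at 0 to 6 and at 13 to 21 peaks.

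Along the autosomes, the density of members varied. Chromosome 11 had the most, with 74 members or 0.625 per Mb of span (95% Poisson interval 0.491 to 0.785), and the autosomes together had 0.229 per Mb. It was followed by chromosome 4 with 57 members (0.380 per Mb), chromosome 5 with 48 (0.322 per Mb), chromosome 15 with 30 (0.300 per Mb) and chromosome 2 with 53 (0.297 per Mb). Chromosome 3 had the fewest per Mb, 14 members or 0.0924 (0.0505 to 0.155). Chromosomes 13 and 14 followed with 11 and 12 members, 0.0944 and 0.103 per Mb. Neighbours in the order of densities had overlapping intervals, although only barely for chromosomes 11 and 4 (0.491 to 0.785 and 0.288 to 0.493). The highest density was 6.77 times the lowest for members and 3.53 times for narrow peaks. The ratio for members rests on the 74 members of chromosome 11 and only 14 of chromosome 3, and the ratios were not compared.

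Chromosomes dense in narrow peaks tended to give a larger share of wide ones, with exceptions. Members made up 5.57% of the peaks under the score limit on chromosome 11, 4.65% on chromosome 4 and 4.30% on chromosome 15. They made up 2.55% on chromosome 13, 2.62% on chromosome 6 and 2.70% on chromosome 14. Across the 19 autosomes, Spearman's rho was 0.96 between the densities of members and of narrow peaks and 0.79 between the share of members and the density of narrow peaks. The points come from 1 list and share its libraries and spans, and these values are given as a description.

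The share of members with a close neighbour was higher than that of narrow peaks on 18 of 19 autosomes, by a median of 17.0 points. On chromosome 4 it was 77.2% (44 of 57) against 49.6%, and the median distance to the nearest peak was 2.59 kb for members and 10.16 kb for narrow peaks. On chromosome 14 it was 83.3%, from only 12 members, against 35.3%. On chromosome 11, which had the most members, the gap was small, 52.7% (40.7 to 64.4%) against 48.4%. Chromosome 9 was the exception, with 36.0% (9 of 25, interval 18.0 to 57.5%) against 39.9%. These intervals are wide, and differences between autosomes were not tested.

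**Figure D5:**
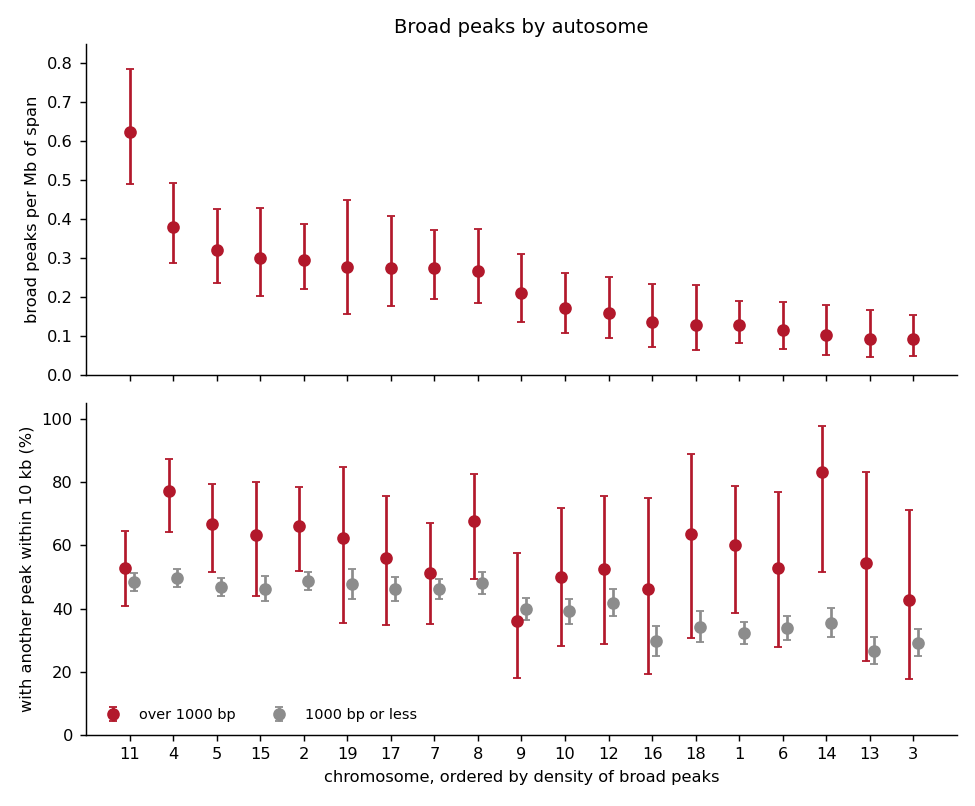
The upper panel gives members per Mb of chromosome span with 95% Poisson intervals, and the lower panel the percentage of members (red) and narrow peaks (grey) with another peak within 10 kb, with 95% exact binomial intervals, for the 19 autosomes. Density ran from 0.625 on chromosome 11 to 0.0924 per Mb on chromosome 3, and members were above narrow peaks on each autosome but chromosome 9.

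In windows of 1 Mb, members occurred in 363 of 2404 windows (15.1%), while narrow peaks occurred in 1732. A single member was present in 250 windows, 2 in 68, and 3 or more in 45. The fullest 10% of windows by all peaks, 240 windows with at least 19 peaks each, held 323 members (59.0%, interval 54.8 to 63.2%) and 47.1% of the narrow peaks. The window with most members was on chromosome 4 from 140000001 to 141000000, with 7 members among 75 peaks. On chromosome 11, the windows from 117000001 to 118000000 and from 119000001 to 120000000 held 6 each. Windows with 5 members lay on chromosome 10 from 80000001, on chromosome 11 from 115000001, on chromosome 2 from 33000001 and on chromosome 4 from 147000001. Among these 7 windows, members made up 9.09% to 14.7% of the peaks under the score limit, against 3.85% over all autosomes. The windows were picked for their number of members, so their higher shares follow from that choice and are not a result.

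A full window did not always hold a member. Of 235 windows with 20 or more peaks, 70 had none, and the fullest of these, on chromosome 5 from 122000001 to 123000000, held 43 peaks. Members made up only 3.65% of autosomal peaks, and whether 70 such windows are few or many was not tested. On chromosome 4, the window from 141000001 to 142000000 held 42 peaks and no member, directly beside the window with the most. Position along the chromosome differed between autosomes in both directions. The distal 50% of the span, away from the centromere, held 366 of the 547 members (66.9%, interval 62.8 to 70.8%) and 62.3% of the narrow peaks (61.5 to 63.1%). Averaged over the 19 autosomes with equal weight, the shares were 58.5% and 59.1%, and members were more distal on 11 of them. On chromosome 10 the distal share was 86.4% of members and 63.9% of narrow peaks, and on chromosome 11 it was 85.1% and 73.4%. Chromosomes 13 and 14 went the other way, with 9.09% of 11 members against 38.7% of narrow peaks and 8.33% of 12 members against 31.9%.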

How the data were processed

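One peak list of the whole series was used. Per the submitters' processing notes, cutadapt and MACS2 version 2.0.10.20131216 were used with genome build mm9. Per the file headers, the list is a narrowPeak track that joins ChIP 1 and 2 with input 1 and 2. For the aligner, duplicate handling and calling threshold no source used here gives a setting. The score is a whole number deposited by the authors, its scaling unstated, and served only to describe and filter peaks of this list. Positions are counted from 1.

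The score limit for members and narrow peaks was 569, and the upper quartile score used as an alternative limit was 163. Neighbours were counted among all peaks of a chromosome, midpoint to midpoint. Spans run from the first to the last peak of a chromosome. Intervals are exact binomial (Clopper-Pearson), Newcombe for differences, and exact Poisson for densities, with Python 3.11.15, numpy 2.4.6, pandas 2.3.3 and scipy 1.17.1. Neighbour counting was tested on 3082 simulated peaks, with 0 counts unlike a direct count. Peaks are named as the 5 highest or lowest by width, score, isolation and neighbours, and the 5 windows of 1 Mb with most members, ties included. The runs, and the full windows without a member, were picked after their values were seen. The members and lists were chosen with earlier results of these data known. The gene and promoter tables at hand are on GRCm38.p6 and were not used.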

Additional observations from a re-analysis of the deposited data

How the results depend on the processing

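The difference between members and narrow peaks in the share with a close neighbour stayed above 0 under all 11 alternatives, from 11.3 to 28.6 percentage points. It was 11.3 points at 50 kb, 12.6 with a width limit of 800 bp, 28.6 with a limit of 1500 bp, and 11.9 with narrow peaks weighted to local density. The weightings involving local density were chosen after seeing the data. The shares themselves moved with the definition. For members they were 45.0% at 5 kb, 88.3% at 50 kb, 53.0% without neighbours at edge gaps under 1 kb, 54.9% with the 800 bp limit and 71.7% with the 1500 bp limit. For narrow peaks they were 28.2% at 5 kb, 77.0% at 50 kb, 43.8% edge to edge, 37.8% without neighbours at edge gaps under 1 kb, and 43.7% at scores under the upper quartile of the list. The number of members was 195 at scores under that quartile, 1193 with the 800 bp limit and 99 with the 1500 bp limit, as follows from the limits. In 5 Mb windows the fullest 10% held 48.8% of members and 38.7% of narrow peaks. Median distances moved by less than their intervals in both alternatives. No paired analysis was possible because no library has values of its own, and for that reason no replicate could be left out. Read depth is unknown, so an empty stretch does not show absent binding.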

Other observations

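Runs of narrow peaks, with the gaps between them, often spanned as much ground as a member. Of the 825 autosomal runs with edge gaps under 1 kb, 663 held only peaks of 1000 bp or less, and 634 of these runs (95.6%) were longer than 1000 bp from first to last base, with a median length of 1549 bp over the 663. Such a stretch counts as several narrow peaks in the deposited list, whereas a member of like length counts as 1.

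Chromosome X, which the comparisons leave out, held 2 wide peaks under the score limit among its 127 peaks in that range (1.57%, exact binomial interval 0.191 to 5.57%). They lay at 7708482 to 7709925 and at 148802762 to 148803987, with scores of 135 and 184, and neither had another peak within 10 kb.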
